A study of Homo sapiens with 9 samples.

Results

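Described here are 10 genes picked by gene symbol, with earlier results of these data known. The choice was for their part in feeding cells with cystine and with neutral, cationic and small amino acids. All 10 encode amino acid transporters of the plasma membrane, 9 carriers and 1 partner protein. They are SLC7A11, SLC3A2, SLC7A5, SLC43A1, SLC7A1, SLC1A4, SLC1A5, SLC38A1, SLC38A2 and SLC6A9, and they are 10 of the 60617 gene identifiers in the count tables. Each symbol matched 1 Ensembl identifier, and all 10 genes had enough counts to be tested.

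Amino acids cross the plasma membrane only with the help of carrier proteins of the solute carrier (SLC) families. Some of these carriers form a pair of chains, in which the light chain (SLC7A5 or SLC7A11) moves the amino acid and the heavy chain, SLC3A2 (also called 4F2hc or CD98), brings the light chain to the cell surface. Several SLC genes are textbook targets of the transcription factor ATF4, which is made when amino acids run short, and SLC7A11 is also a textbook target of NRF2 (gene NFE2L2), the factor of the oxidative stress response. Glutamine, leucine and cystine carriers are well known in cancer cells, where they supply protein synthesis, the growth kinase complex mTORC1 and the antioxidant glutathione.

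RNA of PC-3 cells, an established human prostate cancer line, was sequenced on the BGISEQ-500 platform 5 days after treatment began. The control cells had received the vehicle, a solution of ethanol and sulfuric acid in buffered saline according to the methods of the study. The second group had received decitabine at 1 µM, a cytidine analogue that is built into DNA and traps DNA methyltransferases, so that methylation is lost as cells divide. The third group, called the combination, had received decitabine at 1 µM together with 200 µM S-adenosylmethionine (SAM), the methyl donor of the cell. Each group had 3 libraries, and no library of cells given SAM alone was analysed here, so a SAM effect could be read only on top of decitabine. The labels do not say whether the 3 libraries of a group came from separate cultures. The p-values therefore measure the spread between these libraries, which may be technical, and both comparisons with the controls use the same 3 control libraries.

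Each library held between 21934307 and 22489684 estimated counts. Levels are given as CPM (counts scaled to a common total per library) after scaling by the trimmed mean of M values (TMM), with scaling factors of 0.895 to 0.902 in the controls, 1.058 to 1.078 under decitabine and 1.033 to 1.07 under the combination. These factors differed with treatment, and scaling by library size alone moved the median over the 18532 tested genes, on the log2 scale, from 0.035 to 0.281 under decitabine and from 0.048 to 0.268 under the combination. With library size alone, 8849 genes were called higher and 3746 lower under decitabine, against 6729 and 6030 with TMM, and 8695 higher and 3857 lower under the combination, against 6647 and 5799. The cell label was compared with marker genes, PC-3 being known as an epithelial line with little androgen receptor activity. The 5 epithelial markers (EPCAM, CDH1, KRT8, KRT18 and KRT19) summed to 875 to 956 CPM in controls, 869 to 921 under decitabine and 727 to 867 under the combination. These sums cover opposite changes: in both treatments CDH1 and KRT8 were called higher, and KRT18 and KRT19 lower. CDH1 had means of 1.87 CPM in controls, 14.4 under decitabine and 16.9 under the combination, and KRT19 360, 241 and 228.5. The 5 genes of the androgen receptor programme summed to 2.18 to 3.06, 7.82 to 10.6 and 6.11 to 7.45, with KLK3 at 0 throughout and KLK2 at 0 in controls. Of 9 markers of other cell types (blood, endothelial, stromal and neuroendocrine), 6 could be tested and were higher in both treatments, of which PTPRC and DCN had under 10 counts in every control library and passed the filter only through the treated libraries. The 9 markers summed to 52.6 to 64.6 CPM in controls, 322 to 416 under decitabine and 200 to 291 under the combination, with CD3E and CHGA at 0 in controls. CD68 made the largest part of these sums, with means of 43.5, 256 and 132 CPM. The part of these markers in the results below was not tested.

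Most of the transporters were expressed at lower levels after either treatment. With edgeR's quasi-likelihood test and a Benjamini-Hochberg adjusted p under 0.05 as the call, 8 of 10 were lower under decitabine than in the controls and none higher. Over all genes tested, 32.5% were called lower and 36.3% higher. Under the combination 8 of 10 were again lower and none higher, where 31.3% of all genes were called lower and 35.9% higher. The 8 genes were the same in both comparisons, and SLC3A2 and SLC7A5 were the exceptions. The 10 transporters had medians of -0.80 under decitabine and -0.84 under the combination on the log2 scale, against 0.04 and 0.05 for all genes. Since these genes were chosen with earlier results of these data known, their difference from all genes describes the 10 genes only. At an unadjusted p under 0.05 the same test gave 9 lower and 0 higher under decitabine, and 8 lower and 0 higher under the combination. Again at an adjusted p under 0.05, DESeq2 gave 10 and 8 lower, limma with voom weights 9 and 8, and edgeR with library size alone 7 and 8, with 0 higher in each. In bulk RNA, fewer cells of a type and less RNA per cell cannot be told apart.

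Adding SAM to decitabine moved few of them. Between the combination and decitabine alone, 1 of 10 transporters was lower (SLC6A9) and 0 were higher, where 8.02% of all genes were called lower and 7.67% higher, so the share among the transporters was near that of all genes. At an unadjusted p under 0.05 the counts were also 1 and 0. DESeq2 and limma with voom gave 1 and 0 too, at an adjusted p under 0.05. The median log2 difference between the treatments was 0.09 for the transporters and 0.00 for all genes.

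**Figure D1:**
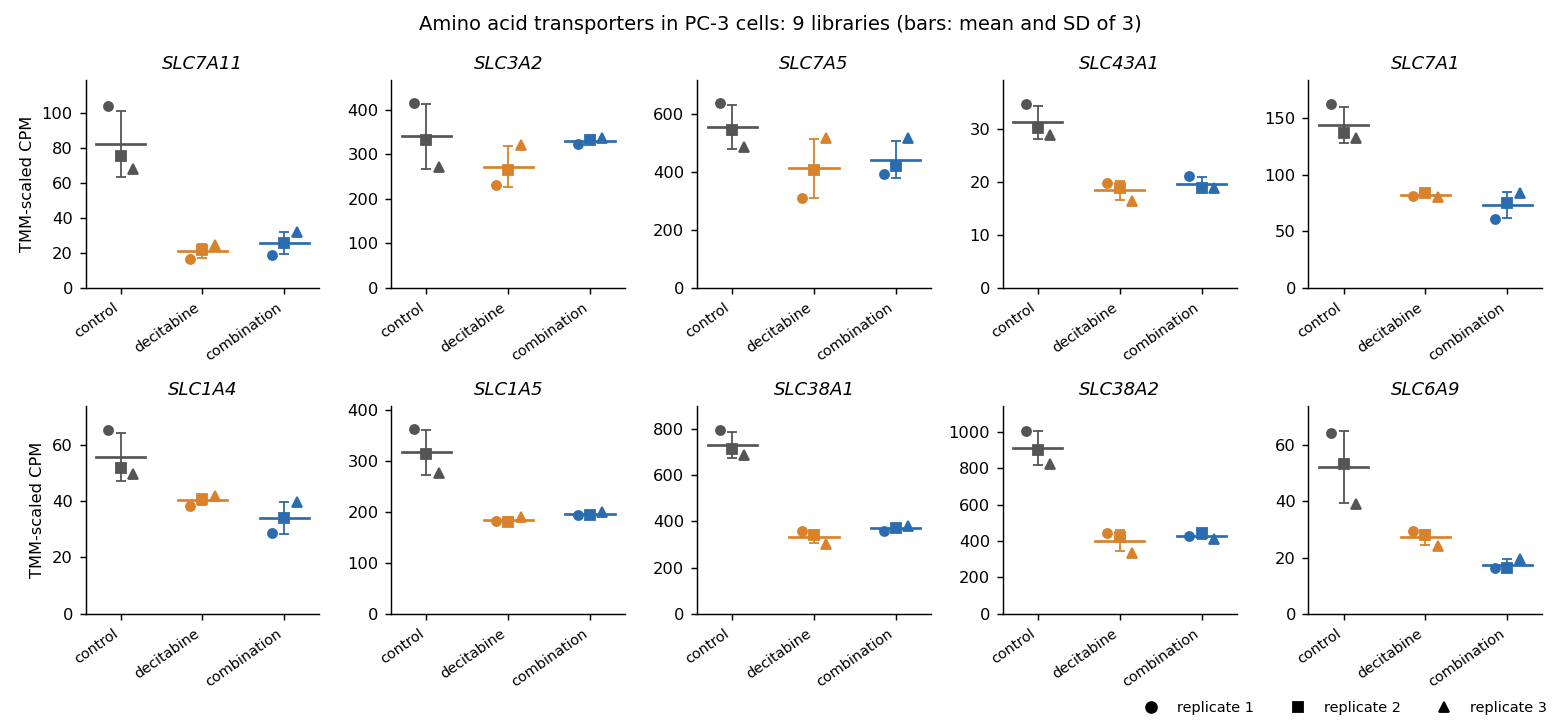
TMM-scaled CPM of the 10 transporters (vertical axes from 0, one panel per gene) in the 3 libraries of each group (horizontal axis), with horizontal lines at the group means and error bars of 1 SD. The control libraries overlapped with treated libraries for SLC3A2 and SLC7A5 and stood above all 6 treated libraries for the other genes shown. The share of all tested genes that separate in this way is not given here.

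**Figure D2:**
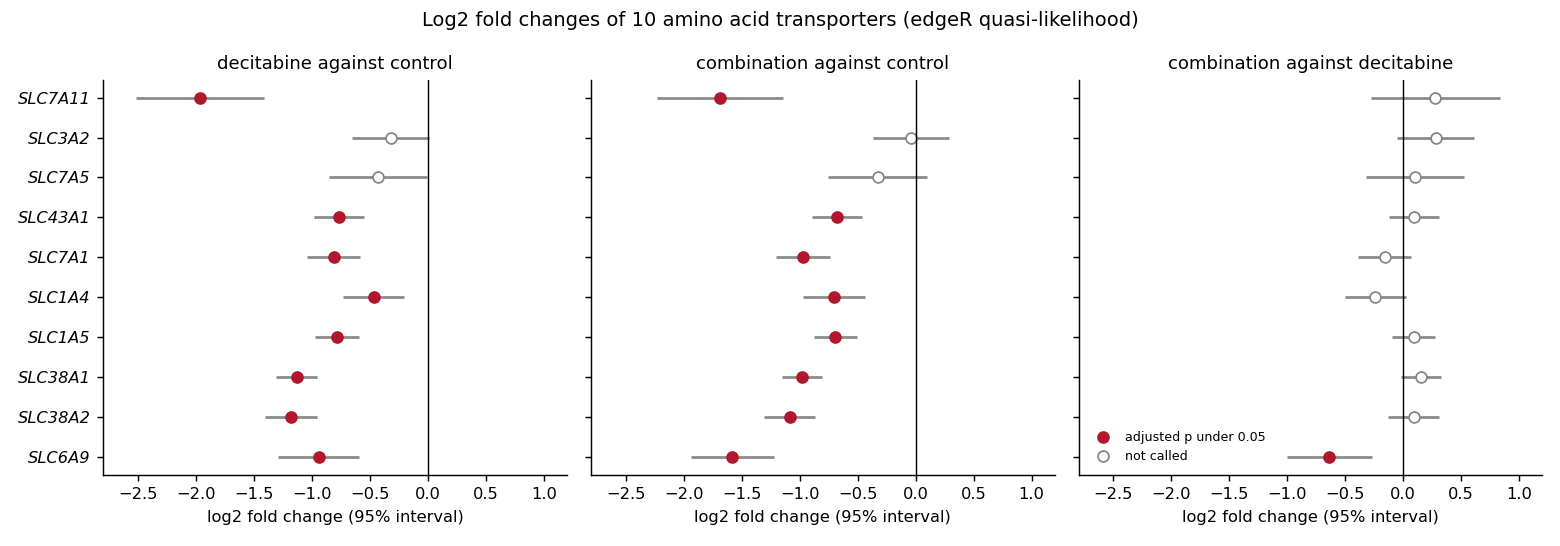
Log2 fold changes (horizontal axes, points) with 95% intervals (lines) of the 10 transporters in the 3 comparisons (panels). Filled points mark an adjusted p under 0.05, which 8 genes had in each comparison with the controls and SLC6A9 had between the treatments.

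The controls were ordered in the same way for every transporter. Control replicate 1 had the highest level of the 3 controls and control replicate 3 the lowest for 10 of 10 genes, with a median ratio of highest to lowest of 1.31. This order was not particular to the transporters. It also held for ATF4, TRIB3 and ASNS, described below, though not for MYC, and the share of all genes with it is not given here. The summed level of the 10 genes was 3644 CPM in control replicate 1, 3147 in control replicate 2 and 2858 in control replicate 3, while the treated libraries held 1717 to 2034. The mean sum was 3216 ± 398 CPM in controls, 1792 ± 68.9 under decitabine and 1937 ± 95.8 under the combination (SD, n = 3 each). Without control replicate 1, the count of lower transporters was still 8 in each comparison with the controls.

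The levels of the genes can be compared only per length of transcript. Per kilobase of canonical transcript, the controls held 189.7 ± 19.3 CPM of SLC38A2, 180.3 ± 38.2 of SLC3A2, 122 ± 16.6 of SLC7A5, 110.1 ± 15.1 of SLC1A5 and 90.1 ± 7.03 of SLC38A1 (SD, n = 3). The other genes followed at 19.6 ± 2.19 for SLC7A1, 16.3 ± 3.95 for SLC6A9, 12.5 ± 1.25 for SLC43A1, 12.2 ± 1.86 for SLC1A4 and 8.55 ± 1.96 for SLC7A11. Among neighbours in this order the control libraries did not overlap between SLC3A2 and SLC7A5, between SLC38A1 and SLC7A1, and between SLC1A4 and SLC7A11, and overlapped for the other neighbours. Under both treatments SLC3A2 stood first, at 144 ± 23.9 and 175 ± 3.30 CPM per kilobase, above SLC7A5 and SLC38A2 without overlap, and SLC7A11 stayed last at 2.19 ± 0.415 and 2.65 ± 0.659. The place of SLC3A2 rests on the length used, since its canonical transcript spans 1885 bases and the union of its exons 6392. With the union of exons, SLC3A2 took rank 5 in the controls and rank 4 under each treatment, and SLC7A11 stood above SLC1A4 in the controls, at rank 9.

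Windows of 300 bases around transcript starts (250 before and 50 after the start, RefSeq, GRCh38.p14) were searched for 3 short motifs, because most members fell together and their textbook regulators bind known motifs. There were 16 windows for 9 of the 10 genes, all but SLC7A11, some genes having several starts. The searched letters were TGATGNAA, the core of the amino acid response element that ATF4 binds, TGACNNNGC, the core of the antioxidant response element that NRF2 binds, and CACGTG, the E-box that MYC binds, each on both strands, and no matches of different motifs overlapped. TGATGNAA was found in 5 of the 16 windows, 1 for each of 5 genes, and in 3.62% of all 35116 windows. SLC1A4, SLC1A5, SLC38A1 and SLC3A2 also had windows at other starts without this motif. The windows with the match held 9 CpG dinucleotides in SLC1A5 and 6 in SLC38A1. Which starts PC-3 cells use was not tested. The 5 matches are shown because this motif was the one shared by most members. Sequences read 5′ to 3′ on the strand of the gene, with the match in capitals, and TTGCATCA and TTACATCA are matches on the other strand.
SLC1A4, chr2:64989382-64989409, plus strand: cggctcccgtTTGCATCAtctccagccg
SLC1A5, chr19:46784894-46784921, minus strand: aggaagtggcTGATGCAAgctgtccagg
SLC38A1, chr12:46266503-46266530, minus strand: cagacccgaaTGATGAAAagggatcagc
SLC3A2, chr11:62881726-62881748, plus strand: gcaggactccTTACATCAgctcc
SLC7A1, chr13:29595664-29595691, minus strand: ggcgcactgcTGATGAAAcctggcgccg
With the first transcribed base as position 0, the matches began at -7 in SLC1A4, -97 in SLC1A5, -4 in SLC38A1, 37 in SLC3A2 and 7 in SLC7A1. TGACNNNGC was found in windows of 4 genes and in 13.3% of all windows. It is shown for the shared heavy chain and one of its light chains, beginning at -37 in SLC3A2 and at -2 in SLC7A5.
SLC3A2, chr11:62881652-62881680, plus strand: cgagggtgggTGACTCAGCgtcctccttc
SLC7A5, chr16:87869491-87869519, minus strand: gcggggttccTGACGCAGCtgcgggcggc
The other 2 genes with TGACNNNGC were SLC1A5 and SLC7A1, and CACGTG was found for SLC1A5, SLC43A1 and SLC7A5 and in 7.26% of all windows. None of the 3 motifs was found in the windows of SLC38A2 and SLC6A9. The windows of the members held a median of 22.5 CpG dinucleotides, between 6 and 49, against 14 for all windows. A match describes these letters only, and the absence of one says that they are not in these windows.

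SLC7A11 (ENSG00000151012, chromosome 4, 138164097 to 138242349, minus strand), which exchanges glutamate for the cystine used to make glutathione, had the largest fitted fall of the 10 genes under both treatments. Its levels were 104, 75.2 and 68.3 CPM in the controls, 16.9, 21.7 and 24.8 under decitabine, and 19.1, 25.9 and 31.8 under the combination. Every treated library lay under every control library, and the highest treated library held fewer CPM than the lowest control by a wide margin. The level under decitabine was 25.6% of the control level, a log2 fold change of -1.96 ± 0.24 (SE, adjusted p = 0.000119, edgeR's quasi-likelihood test). Under the combination it was 31.0% of the control level, with a log2 fold change of -1.69 ± 0.24 and an adjusted p of 0.000291 (edgeR). The treatments overlapped, and their log2 difference of 0.28 had a 95% interval of -0.28 to 0.83 (edgeR, adjusted p = 0.484), which leaves room for a difference in either direction.

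A long noncoding gene on the other strand, SLC7A11-AS1 (ENSG00000250033, chromosome 4, 138057464 to 138178177, plus strand), overlaps the 3′ part of SLC7A11 and moved the other way. It had 1 count in each control library, 230, 179 and 287 counts under decitabine, and 159, 157 and 216 under the combination. All treated libraries were far above the controls. The ratio of the summed levels was 197 under decitabine, with a counting interval of 67.2 to 959 (95%, counting error only), and 155 under the combination, with an interval of 52.6 to 752. The gene passed the filter on low counts only through the treated libraries, so a call against the controls had to be higher. Such a call was made in both comparisons (edgeR, adjusted p = 6.93e-10 and 1.48e-09). The combination differed from decitabine by -0.35 on the log2 scale with a 95% interval of -0.72 to 0.02 (edgeR, adjusted p = 0.181). SLC7A11 itself had 1383 to 2092 counts in controls and 399 to 746 under treatment. Whether the counting used the strand of the reads is not given in the sources used here, and without it reads of the overlapping stretch cannot be assigned to one gene or the other.

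**Figure D3:**
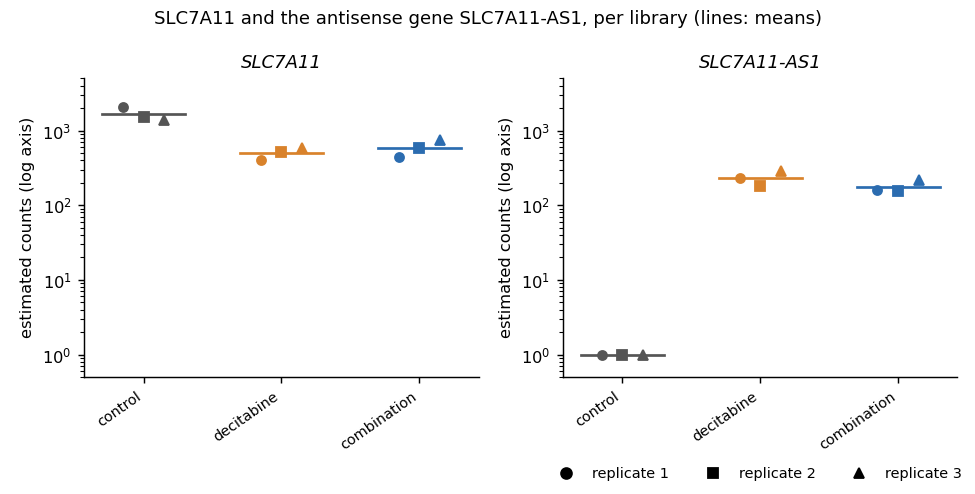
Estimated counts per library (vertical axes, log scale) of SLC7A11 and of the antisense gene SLC7A11-AS1 in the 3 groups (horizontal axes), with lines at the group means. SLC7A11 was lower in all 6 treated libraries, while SLC7A11-AS1 went from 1 count in each control to between 157 and 287.

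SLC3A2 (ENSG00000168003, chromosome 11, 62856004 to 62888880, plus strand), the heavy chain that SLC7A11 and SLC7A5 share, was not called in any comparison. Its levels were 415, 333 and 271 CPM in the controls, 231, 265 and 320.4 under decitabine, and 324, 333 and 336 under the combination. The groups overlapped with the controls, which were themselves spread widely, while the 3 combination libraries lay close together and above all decitabine libraries. The log2 fold change under decitabine was -0.32, with a 95% interval of -0.65 to 0.01 (edgeR, adjusted p = 0.0794). It was called lower in 4 of 17 alternative analyses, namely with DESeq2 (adjusted p = 0.0498), without the filter on low counts, and without control replicate 3 or decitabine replicate 3, and the adjusted p ran from 7.68e-05 to 0.701 over the 17. Under the combination the log2 fold change was -0.04, with an interval of -0.37 to 0.29 (edgeR, adjusted p = 0.826), and it became 0.18 when only library size was used for scaling. The combination exceeded decitabine by 0.28 on the log2 scale, with an interval of -0.05 to 0.61 (edgeR, adjusted p = 0.234).

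SLC7A5 (ENSG00000103257, chromosome 16, 87830023 to 87869507, minus strand), also called LAT1, brings in leucine and other large neutral amino acids in exchange for glutamine. Its levels were 635, 544 and 485 CPM in the controls, 311, 407 and 516 under decitabine, and 392, 418 and 515 under the combination. The third library of each treatment reached into the control range, and the decitabine libraries had the widest relative spread of this gene (coefficient of variation 24.9%). The log2 fold change was -0.43 under decitabine, with a 95% interval of -0.85 to -0.01 (edgeR, adjusted p = 0.0656), and -0.33 under the combination, with an interval of -0.75 to 0.10 (edgeR, adjusted p = 0.148). The first was called lower in 5 of 17 alternatives, over which its adjusted p ran from 0.00595 to 0.446, and the second in 2 of 17, over which it ran from 0.0402 to 0.666. The 5 were DESeq2, limma with voom, no filter, and the fits without control replicate 3 or decitabine replicate 3; the 2 were the fit to the 6 libraries compared alone and that without decitabine replicate 1. The treatments differed by 0.10 on the log2 scale, with an interval of -0.32 to 0.53 (edgeR, adjusted p = 0.746). Its near-identical copies carried little signal, with 4 to 10 counts for SLC7A5P1 and 0 for SLC7A5P2 in every library.

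Within a library, the ratio of a light chain to the heavy chain does not depend on the scaling between libraries. Per 100 units of SLC3A2 (counts per kilobase), SLC7A11 stood at 4.89, 4.42 and 4.92 in the controls, 1.43, 1.60 and 1.51 under decitabine, and 1.15, 1.52 and 1.85 under the combination. All treated libraries were under the controls, and both treatments averaged 1.51 against 4.74 in the controls. An exact two-sided permutation test of each treatment against the controls gave p = 0.1, the smallest p that 3 against 3 libraries allow, and 0.214 after adjustment over the 15 ratio comparisons made. SLC7A5 stood at 68.3 ± 5.36 per 100 SLC3A2 in controls, 61.9 ± 5.62 under decitabine and 55.2 ± 7.23 under the combination (SD, n = 3), and these did not separate (exact permutation p = 0.3 and 0.2 against the controls, adjusted p = 0.409 and 0.375). SLC7A11 per 100 SLC7A5 was 6.97 ± 0.66 in controls, 2.45 ± 0.156 under decitabine and 2.71 ± 0.36 under the combination, without overlap between controls and treated libraries (exact permutation p = 0.1, adjusted 0.214). The size of these ratios rests on the transcript length used, but the comparison between groups does not: with the union of exons, an alternative chosen after seeing the data, the control means became 16.1 for SLC7A11 and 221 for SLC7A5 per 100 SLC3A2, so that SLC7A5 moved from below SLC3A2 to above it.

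**Figure D4:**
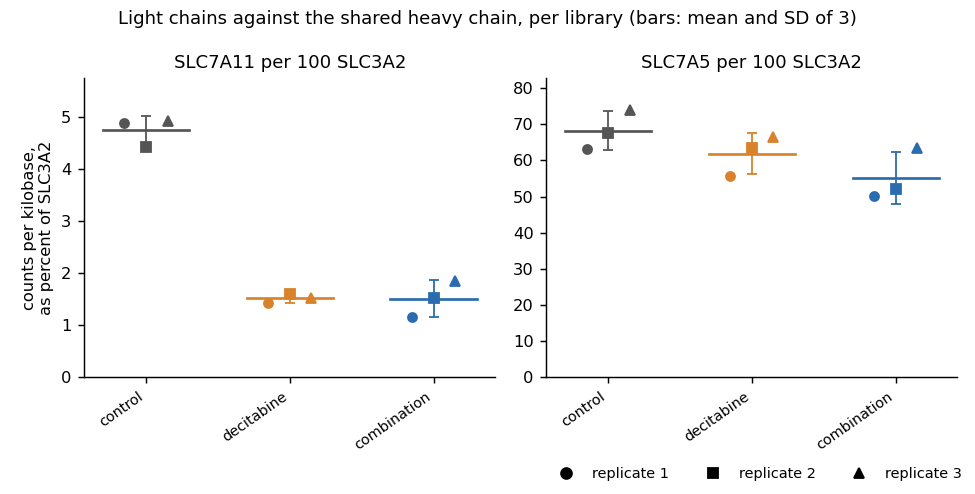
Counts per kilobase of SLC7A11 and of SLC7A5 as percent of those of SLC3A2 in the same library (vertical axes from 0) in the 3 groups, with group means and bars of 1 SD. SLC7A11 per SLC3A2 was 4.42 to 4.92 in controls and 1.15 to 1.85 in treated libraries, whereas SLC7A5 per SLC3A2 overlapped between groups. Lengths are those of the canonical transcripts, and the union of exons gives control means of 16.1 and 221.

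SLC43A1 (ENSG00000149150, chromosome 11, 57484534 to 57515780, minus strand), also called LAT3, carries large neutral amino acids without a heavy chain. Its levels were 34.9, 30.3 and 28.9 CPM in the controls, 19.8, 19.0 and 16.5 under decitabine, and 21.2, 18.9 and 18.9 under the combination. The control libraries were all above the treated libraries, which overlapped with each other. It fell under both treatments, with log2 fold changes of -0.77 ± 0.10 under decitabine (edgeR, adjusted p = 1.07e-05) and -0.67 ± 0.10 under the combination (edgeR, adjusted p = 3.72e-05), and the treatments differed by 0.09 with a 95% interval of -0.13 to 0.31 (edgeR, adjusted p = 0.581).

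SLC7A1 (ENSG00000139514, chromosome 13, 29509414 to 29595688, minus strand), also called CAT1, imports arginine, lysine and ornithine. Its levels were 162, 137 and 132 CPM in the controls, 81.2, 83.9 and 80.7 under decitabine, and 60.9, 75.1 and 84.0 under the combination. Decitabine libraries lay close together and well under the controls, and the combination libraries were spread around and under them. Decitabine gave a log2 fold change of -0.81 ± 0.11 (edgeR, adjusted p = 1.39e-05) and the combination one of -0.97 ± 0.11 (edgeR, adjusted p = 2.86e-06). The difference between the treatments was -0.16, with an interval of -0.39 to 0.07 (edgeR, adjusted p = 0.332).

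SLC1A5 (ENSG00000105281, chromosome 19, 46774883 to 46788594, minus strand), also called ASCT2, exchanges glutamine and other small neutral amino acids. Its levels were 363, 313 and 276 CPM in the controls, 182, 180.5 and 190.4 under decitabine, and 194, 195 and 199.9 under the combination. Treated libraries were tightly grouped and under every control, and the combination libraries were all slightly above the decitabine libraries. Its log2 fold change was -0.78 ± 0.09 under decitabine (edgeR, adjusted p = 2.04e-06) and -0.69 ± 0.09 under the combination (edgeR, adjusted p = 7.08e-06). The treatments differed by 0.09, with an interval of -0.09 to 0.28 (edgeR, adjusted p = 0.508).

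SLC1A4 (ENSG00000115902, chromosome 2, 64988477 to 65023865, plus strand), also called ASCT1, exchanges serine, alanine and cysteine and belongs to the same family. Its levels were 65.3, 51.6 and 49.7 CPM in the controls, 38.4, 40.7 and 41.7 under decitabine, and 28.6, 33.9 and 39.8 under the combination. All treated libraries lay under the controls, and the combination reached lower values than decitabine while overlapping with it. SLC1A4 changed by -0.47 ± 0.12 on the log2 scale under decitabine (edgeR, adjusted p = 0.004) and -0.71 ± 0.12 under the combination (edgeR, adjusted p = 0.000199). With library size alone as the scaling, the decitabine value was -0.22 and was not called (edgeR, adjusted p = 0.152, the highest of 17 alternatives, the lowest being 1.69e-07). The treatments differed by -0.24, with an interval of -0.51 to 0.03 (edgeR, adjusted p = 0.204), and were called different in 1 of 17 alternatives, the fit without combination replicate 3 (adjusted p = 0.0397, against up to 0.541 in the others). SLC1A4 per 100 SLC1A5 (counts per kilobase) was 11.0 ± 0.555 in controls, 13.8 ± 0.478 under decitabine and 10.9 ± 1.64 under the combination, where the decitabine libraries lay above those of both other groups without overlap (exact permutation p = 0.1, the smallest possible, adjusted p = 0.214).

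SLC38A1 (ENSG00000111371, chromosome 12, 46183063 to 46270017, minus strand), also called SNAT1, takes up glutamine and other neutral amino acids with sodium. Its levels were 794, 710.3 and 685 CPM in the controls, 359.6, 339 and 302 under decitabine, and 359, 373 and 378 under the combination. The treated libraries were far below the controls. Decitabine gave a log2 fold change of -1.13 ± 0.08 (edgeR, adjusted p = 3.38e-08), the smallest adjusted p of the 10 genes in that comparison, and the combination one of -0.98 ± 0.08 (edgeR, adjusted p = 1.32e-07). The treatments differed by 0.15, with an interval of -0.02 to 0.33 (edgeR, adjusted p = 0.228).

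SLC38A2 (ENSG00000134294, chromosome 12, 46358188 to 46372773, minus strand), also called SNAT2, has a similar range of substrates and is induced in starved cells. Its levels were 1007, 898 and 823 CPM in the controls, 447, 422 and 336 under decitabine, and 427, 446 and 412 under the combination. Again no treated library reached the controls. The log2 fold change was -1.18 ± 0.10 under decitabine (edgeR, adjusted p = 2.07e-07) and -1.09 ± 0.10 under the combination (edgeR, adjusted p = 4.83e-07), and the treatments differed by 0.09 with an interval of -0.13 to 0.31 (edgeR, adjusted p = 0.58). Both genes lie close together on chromosome 12, and SLC38A1 per 100 SLC38A2 was 47.6 ± 1.46 (counts per kilobase) in controls, 49.5 ± 3.27 under decitabine and 51.2 ± 2.71 under the combination (exact permutation p = 0.5 and 0.1 against the controls, adjusted p = 0.577 and 0.214), with every combination library above every control.

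SLC6A9 (ENSG00000196517, chromosome 1, 43991500 to 44031467, minus strand), also called GLYT1, imports glycine and was the only member called between the treatments. Its levels were 64.3, 53.3 and 39.1 CPM in the controls, 29.5, 28.0 and 24.1 under decitabine, and 16.5, 16.3 and 19.7 under the combination. The 3 groups formed 3 steps without overlap, the combination being lowest. The log2 fold change was -0.94 ± 0.16 under decitabine (edgeR, adjusted p = 0.000274) and -1.58 ± 0.16 under the combination (edgeR, adjusted p = 6.38e-06). The combination lay below decitabine, with a log2 difference of -0.64 and a 95% interval of -1.001 to -0.274 (edgeR, adjusted p = 0.0262). That call was lost without decitabine replicate 1 (adjusted p = 0.0896), decitabine replicate 2 (0.0918), combination replicate 1 (0.109) or combination replicate 2 (0.112), over a range of 4.50e-08 to 0.112 in 17 alternatives, while the log2 difference stayed between -0.73 and -0.58. CCDC24 (chromosome 1, 43991359 to 43996528, plus strand) overlaps the 3′ part of SLC6A9. Without strand in the counting, reads of that stretch cannot be assigned to one gene or the other. CCDC24 had 126 to 333 counts and was higher in both treatments, by 1.06 and 1.07 on the log2 scale (edgeR, adjusted p = 5.92e-07 and 5.99e-07), and the treatments differed by 0.00 in it, with an interval of -0.20 to 0.21.

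The patterns most like those of the transporters over the 9 libraries were sought among all tested genes and are given as descriptions, since all libraries share their treatment groups. The log2 profile of SLC7A11 was most like that of PUSL1 (Pearson r = 0.992) and DNAJC5 (r = 0.99). The mean profile of the 10 transporters was most like that of SRPRA (r = 0.995) and MBD6 (r = 0.989). All 4 fell less than SLC7A11, with log2 fold changes under decitabine of -0.70 for PUSL1, -0.38 for DNAJC5, -0.36 for SRPRA and -0.82 for MBD6.

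Regulators known to act on these genes moved in both directions, and the RNA of ATF4 was lower after both treatments. A link between any regulator and the transporters was not tested. Of 15 regulators, 3 were higher and 6 lower under decitabine, and 3 higher and 6 lower under the combination. Among all genes, 36.3% were called higher and 32.5% lower under decitabine, and 35.9% and 31.3% under the combination. The regulators had medians of -0.13 and -0.25 on the log2 scale. With library size alone as the scaling their counts were 6 and 4 under decitabine and 4 and 5 under the combination. ATF4 had 519, 444 and 392 CPM in controls, 209, 209 and 216 under decitabine, and 168, 161 and 176 under the combination, 3 steps without overlap. Its log2 fold changes were -1.10 and -1.42 (edgeR, adjusted p = 1.06e-07 and 9.36e-09), and the combination differed from decitabine by -0.33 (edgeR, adjusted p = 0.0266). TRIB3, a target of ATF4 that restrains it, fell from 437 ± 142 CPM to 92.6 ± 3.50 and 82.2 ± 2.87 (SD, n = 3), with log2 fold changes of -2.24 and -2.41. The stress factor DDIT3 fell, at -0.77 and -1.59 on the log2 scale, as did CEBPG, a partner of ATF4, at -1.26 and -1.38. MYC fell from 361 ± 14.1 to 200.9 ± 9.12 and 219 ± 27.3 CPM, a log2 change of -0.85 and -0.72. NFE2L2 also fell, at -0.36 on the log2 scale in both treatments (edgeR, adjusted p = 0.00037 and 0.000377), from 112 ± 5.55 to 87.9 ± 4.98 and 87.8 ± 3.18 CPM. ATF3 and ATF5, factors of the same stress response, rose by 1.67 and 1.36 under decitabine and by 1.09 and 1.22 under the combination. EIF2AK4 (GCN2), the kinase that senses uncharged transfer RNA, was not called with TMM scaling, at -0.003 and -0.11 on the log2 scale, and turned with library size alone to 0.24, called higher (edgeR, adjusted p = 0.00977), and 0.11, not called (adjusted p = 0.203).

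Enzymes that use the imported amino acids moved in both directions. Of 11 tested, 3 were higher and 6 lower under decitabine, and 4 higher and 6 lower under the combination. For all genes the shares were 36.3% higher and 32.5% lower under decitabine, and 35.9% and 31.3% under the combination. The enzymes had medians of -0.46 and -0.24 on the log2 scale. With library size alone their counts were 3 and 5, and 4 and 5. ASNS, which makes asparagine and is a target of ATF4, had 249, 193 and 153 CPM in the controls, 48.5, 49.5 and 45.5 under decitabine, and 31.8, 34.1 and 38.3 under the combination. It fell, with log2 fold changes of -2.05 and -2.51 (edgeR, adjusted p = 8.58e-07 and 2.3e-07), and all treated libraries were far under the controls. GLUL, which makes glutamine, fell from 189.8 ± 4.01 to 82.9 ± 6.17 and 87.3 ± 4.34 CPM, a log2 change of -1.20 and -1.12. Of the genes of glutathione synthesis downstream of cystine, GCLC and GCLM, the subunits of the first enzyme, rose slightly, on the log2 scale by 0.21 and 0.18 under decitabine and by 0.33 and 0.35 under the combination, whereas GSS, the second enzyme, fell, at -0.56 and -0.62. ARG2, the mitochondrial arginase, rose from 0.976 ± 0.24 to 5.00 ± 0.849 and 7.62 ± 0.185 CPM, a log2 change of 2.35 and 2.96.

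Among the other amino acid transporters of the plasma membrane, several genes close to silent in the controls were detected after treatment. Of 32 such genes 18 had enough counts to be tested. Of the 18, 8 had under 10 counts in every control library and passed the filter only through the treated libraries, so they had to be higher, and their calls say nothing of the direction of the list. Of the other 10 genes, 3 were higher and 3 lower under decitabine, and 4 higher and 2 lower under the combination. Among these 4 was SLC1A6, with 7, 9 and 10 counts in the controls. It too passed the filter only through treated libraries, so its call does not bear on the direction of the list either. The shares over all genes were 36.3% higher and 32.5% lower under decitabine, and 35.9% and 31.3% under the combination. The named genes among the 8 are given by their values. SLC1A7, a glutamate transporter of the retina, had 0 counts in the 3 controls and 9.98, 10.3 and 8.17 CPM under decitabine, and 9.23, 8.89 and 6.65 under the combination, at least 191-fold and 166-fold higher than 3 counts over the control group. SLC6A15, a neuronal carrier of branched-chain amino acids, had 0.0828 ± 0.0287 CPM in the controls, 6.95 ± 0.348 under decitabine and 7.80 ± 0.225 under the combination. SLC6A17 was at least 11.1-fold and 6.69-fold higher than that limit, and SLC38A4, with 1 count in the controls, had a ratio of 84.2 (counting interval 14.8 to 3360) and 56.7 (9.82 to 2270). Of the carriers already expressed in the controls, SLC7A8 (LAT2), another light chain partner of SLC3A2, had 117, 118 and 100.9 CPM in controls, 33.0, 37.8 and 32.2 under decitabine, and 35.4, 48.4 and 35.7 under the combination, and fell, with log2 fold changes of -1.70 and -1.49 (edgeR, adjusted p = 4.81e-08 and 1.56e-07). SLC6A6, the taurine carrier, fell too, at -0.73 and -0.62.

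**Figure D5:**
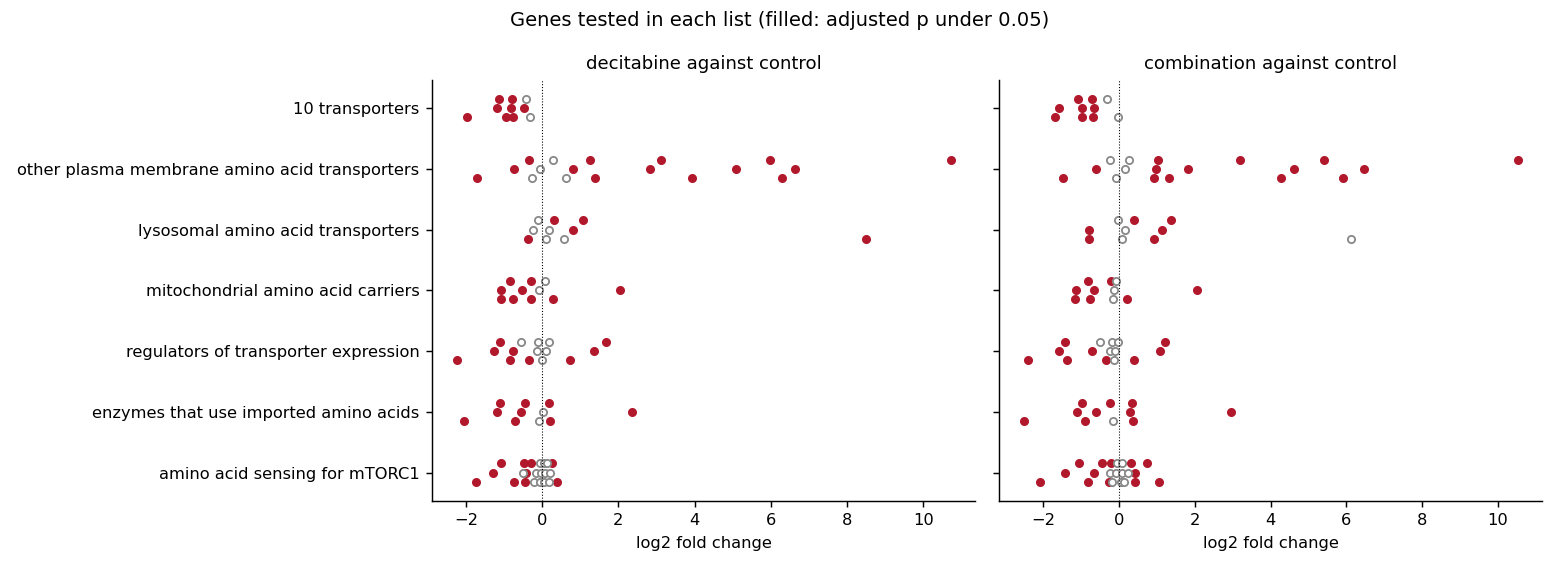
Log2 fold changes (horizontal axes) of the genes tested in the list of 10 transporters and 6 lists of related genes (rows) for both comparisons with the controls (panels), with filled points for an adjusted p under 0.05. The 10 transporters lay between -1.96 and -0.32 under decitabine and between -1.69 and -0.04 under the combination. Of the other plasma membrane transporters, 8 had under 10 counts in every control library. These genes and SLC1A6 passed the filter only through the treated libraries.

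Transporters of the lysosome membrane, which carry amino acids in or out of that compartment, were mixed. Of 10, all tested, 4 were higher and 1 lower under decitabine, and 4 higher and 2 lower under the combination. SLC15A3 and SLC7A14 had under 10 counts in every control library and passed the filter only through treated libraries. Of the other 8, 3 were higher and 1 lower under decitabine, and 3 higher and 2 lower under the combination. All genes had 36.3% higher and 32.5% lower under decitabine, and 35.9% and 31.3% under the combination. With library size alone the counts over the 10 transporters of this list were 6 and 0, and 8 and 2. CTNS, the exporter of cystine, rose from 23.1 ± 1.28 to 40.8 ± 3.02 and 44.1 ± 3.91 CPM, a log2 change of 0.82 and 0.93, and MFSD12, which carries cysteine into the lysosome, rose by 1.07 and 1.14 on that scale. SLC15A3, a carrier of histidine and peptides, had 0.0993, 0.05 and 0 CPM in the controls, 13.9, 19.6 and 27.0 under decitabine, and 0.305, 0.792 and 10.4 under the combination. Its combination libraries were spread widely, all under the lowest decitabine library, and it was called under decitabine (edgeR, adjusted p = 0.0065) and not under the combination (edgeR, adjusted p = 0.0544). SLC38A9, the arginine sensor of the lysosome, fell, with log2 fold changes of -0.37 and -0.80.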

How the data were processed

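RNA of PC-3 cells in 3 groups of 3 libraries was measured by RNA sequencing. Per the methods of the study and the submitters' processing notes, the authors trimmed reads with Trim Galore 0.6.4 and assigned them to GRCh38.p13 with kallisto, and they deposited estimated counts per Ensembl gene for each library. Their annotation release is not given in the sources used here. Deposited log2 CPM values were not used. Counts were rounded to whole numbers and joined by identifier, and names, positions and lengths came from GENCODE 44, which matched 60357 of 60617 identifiers.

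Genes were filtered with filterByExpr (18532 kept), scaled by TMM and tested in edgeR 4.0.16 (R 4.3.3) with the quasi-likelihood test in 1 fit of all 9 libraries, with Benjamini-Hochberg adjustment over all genes and 0.05 as the threshold. The test was tested on simulated data. Alternatives were DESeq2 1.42.0 (test and size factors), limma 3.58.1 with voom, library size alone, other filters, a replicate block, fits of 6 libraries and leaving out each library. Ratios were compared with exact permutation tests. A ratio to a control total of 1 to 3 counts carries a 95% counting interval, and a control total of 0 was set to 3 counts over the 3 libraries.

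The members and all gene lists were chosen with earlier results of these data known. Named were all members, their copies and overlapping genes, and from each list the 3 called genes of largest change in each comparison with the controls, with at least 10 counts on average in a group, besides ATF4, NFE2L2, MYC and TRIB3. Other genes named from a list were chosen after their values were seen. One overlapping gene is not reported here.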

Additional observations from a re-analysis of the deposited data

How the results depend on the processing

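Of 510 member results under the alternatives, 487 kept their direction and their side of the threshold, 5 lost and 13 gained a call, and 5 turned direction. Requiring an absolute log2 fold change over 1 reduced the counts of lower transporters from 8 to 3 under decitabine, from 8 to 3 under the combination, and from 1 to 0 between the treatments, because fewer genes can pass. Without the filter on low counts, 1 transporter (SLC3A2) was higher under the combination than under decitabine, against 0; the cause was not tested. Leaving out 1 library at a time gave 0 to 2 lower transporters between the treatments, 0 without decitabine replicate 1 or 2 or combination replicate 1 or 2, and 2 without combination replicate 3. Directions turned only for differences that were not called. SLC3A2 under the combination against controls was -0.04, 0.182 with library size alone and -0.187 to 0.121 with 1 library left out, SLC7A5 between the treatments -0.062 to 0.3, and SLC38A2 between the treatments -0.022 to 0.176.

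With the replicate block the counts of lower transporters were 8, 8 and 1, with 0 higher in each comparison, and no member's call changed; over all genes the higher and lower calls were 6808 and 6137 under decitabine, 6735 and 5938 under the combination, and 1766 and 1890 between the treatments. Same-numbered libraries deviated together with correlations of -0.017 to 0.233, against -0.22 to 0.058 for other pairs. Between the treatments, each decitabine library correlated best with the combination library of its own number, at 0.233, 0.036 and 0.229. With the controls this did not hold throughout: of the decitabine libraries, control replicate 1 correlated best with replicate 2 (0.058). The labels do not say whether same-numbered libraries belong together. Per kilobase levels moved by over 1 SD for 6 of 10 members with the union of exons. Depth did not limit the members, which had at least 370 counts in each library, but limits the genes near 0 in the controls.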

Other observations

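Of 12 carriers of the inner mitochondrial membrane that handle amino acids, 11 could be tested. Of these, 2 were higher and 7 lower under decitabine, where 32.5% of all genes were called lower, and 2 higher and 6 lower under the combination, where 31.3% were, with median log2 fold changes of -0.30 and -0.21; with library size alone the counts were 3 and 5, and 2 and 5. SLC25A12, the aspartate and glutamate carrier, had 25.8, 26.0 and 24.0 CPM in controls, 13.3, 12.2 and 10.5 under decitabine, and 13.1, 10.4 and 10.6 under the combination, and fell, with log2 fold changes of -1.07 and -1.15 (edgeR's quasi-likelihood test, adjusted p = 1.5e-06 and 8.39e-07). SFXN1, a serine carrier, fell, at -1.08 and -0.82, as did its relative SFXN2, at -0.76 and -1.17. SLC25A18, a glutamate carrier, rose from 1.19 ± 0.419 to 4.89 ± 0.393 and 4.94 ± 0.175 CPM (SD, n = 3), a log2 change of 2.03 and 2.05.

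Of 22 genes that pass amino acid levels on to mTORC1, 2 were higher and 8 lower under decitabine, and 5 higher and 8 lower under the combination. Among all genes, 36.3% were higher and 32.5% lower under decitabine, and 35.9% and 31.3% under the combination. The 22 genes had medians of -0.11 and -0.07. With library size alone their split turned to 9 and 5, and 10 and 5. SESN2, the leucine sensor and a target of ATF4, had 83.0, 65.0 and 53.8 CPM in controls, 20.1, 21.4 and 19.5 under decitabine, and 12.8, 16.2 and 18.3 under the combination, and fell, at -1.73 and -2.09 on the log2 scale (edgeR, adjusted p = 1.87e-06 and 4.83e-07). RPTOR, the subunit that defines mTORC1, fell from 149 ± 4.15 to 60.8 ± 8.18 and 55.7 ± 6.70 CPM, a log2 change of -1.29 and -1.42. NPRL3 fell, at -1.09 and -0.82, and so did RRAGB, at -0.73 and -1.06. CASTOR2, of the family of arginine sensors, was the only gene of this list called between the treatments, with 12.2, 13.1 and 14.1 CPM under decitabine and 21.8, 25.6 and 22.7 under the combination, a log2 difference of 0.83 (edgeR, adjusted p = 0.000411).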
